A study of Rattus norvegicus with 12 samples.

Results

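The 2 classes of temperature-linked genes were followed through the 12 libraries of rat pubocaudalis muscle: the cold-inducible RNA-binding protein genes Rbm3 and Cirbp, and 8 genes of the heat-shock system, Hspa8, Hsph1, Hspa4, Hsp90aa1, Dnajb1, Hspb1, Hspd1 and Hsf1. These 10 genes, of 30206 in the table, were found by their symbols, and each had 1 row. The set was selected on the measured lower level of Rbm3 in lactating muscle, and the question was whether Cirbp or the heat-shock genes moved with it. The lactation effect of Rbm3 is therefore given as a description with no test, and the other 9 genes were tested.

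The pubocaudalis, a pelvic floor muscle, came from 3-month-old female Sprague-Dawley rats that underwent simulated birth injury (SBI), a vaginal balloon distention performed late in pregnancy. Pups were either taken away just after delivery (1wk SBI and 3wk SBI) or left with the dam to suckle (1wk SBI + Lac and 3wk SBI + Lac), and muscle was harvested 1 or 3 weeks after the injury, the later time being that of weaning. Every rat of the 4 groups had been pregnant and injured, so the libraries hold no uninjured muscle. RNA of 2 rats was pooled for each library, with 3 libraries per group, and n is the number of pools. Total counts ran from 10082734 to 75634391 per library, and at 1 week each non-lactating library was deeper than each lactating one. All 10 myofiber markers examined were detected in all 12 libraries. In whole muscle, fewer cells of a type and less RNA per cell cannot be told apart.

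RBM3 and CIRBP are small RNA-binding proteins whose transcripts rise when cells are mildly cooled and decline when they are warmed. The heat-shock system answers the opposite stress. HSF1, its main transcription factor, binds heat-shock elements in the promoters of chaperone genes. HSP70, HSP110 and HSP90 chaperones then hold and refold proteins together with HSP40 partners, small heat-shock proteins keep unfolded proteins from aggregating, and chaperonins fold proteins within a closed chamber. In skeletal muscle many of these genes are also expressed at high basal levels, and RBM3 has been linked to the preservation of muscle mass.

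Levels are in normalized CPM, in which the counts of each library are brought to 1 common total by TMM scaling in edgeR. They are not divided by transcript length, so they are compared between libraries and not between genes. Fold changes are log2 values of lactating over non-lactating muscle. Calls used an adjusted p under 0.05 from the quasi-likelihood test of edgeR, fitted to all 12 libraries, with Benjamini-Hochberg adjustment over the 14599 genes tested, all 10 genes among them.

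Rbm3 was lower in all 6 lactating libraries than in all 6 non-lactating ones. At 1 week it stood at 59.1, 68.8 and 52.2 normalized CPM in the 3 non-lactating libraries. The 3 lactating libraries of that week held 20.3, 22.7 and 25.3 normalized CPM. At 3 weeks the non-lactating libraries held 80.5, 59.6 and 65.4 normalized CPM. The corresponding lactating libraries held 28.6, 34.8 and 34.0 normalized CPM. The order of group means was thus 3wk SBI (68.5 ± 10.8, SD, n = 3), 1wk SBI (60.0 ± 8.35), 3wk SBI + Lac (32.4 ± 3.38) and 1wk SBI + Lac (22.8 ± 2.51). The libraries of both non-lactating groups overlapped, whereas those of the other neighbouring groups did not. The log2 fold change with lactation was -1.40 (standard error 0.138) at 1 week and -1.08 (standard error 0.138) at 3 weeks. Among 12319 genes with a mean of at least 1 normalized CPM, 87 had a lower log2 fold change than Rbm3 at 1 week and 242 at 3 weeks.

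**Figure D1:**
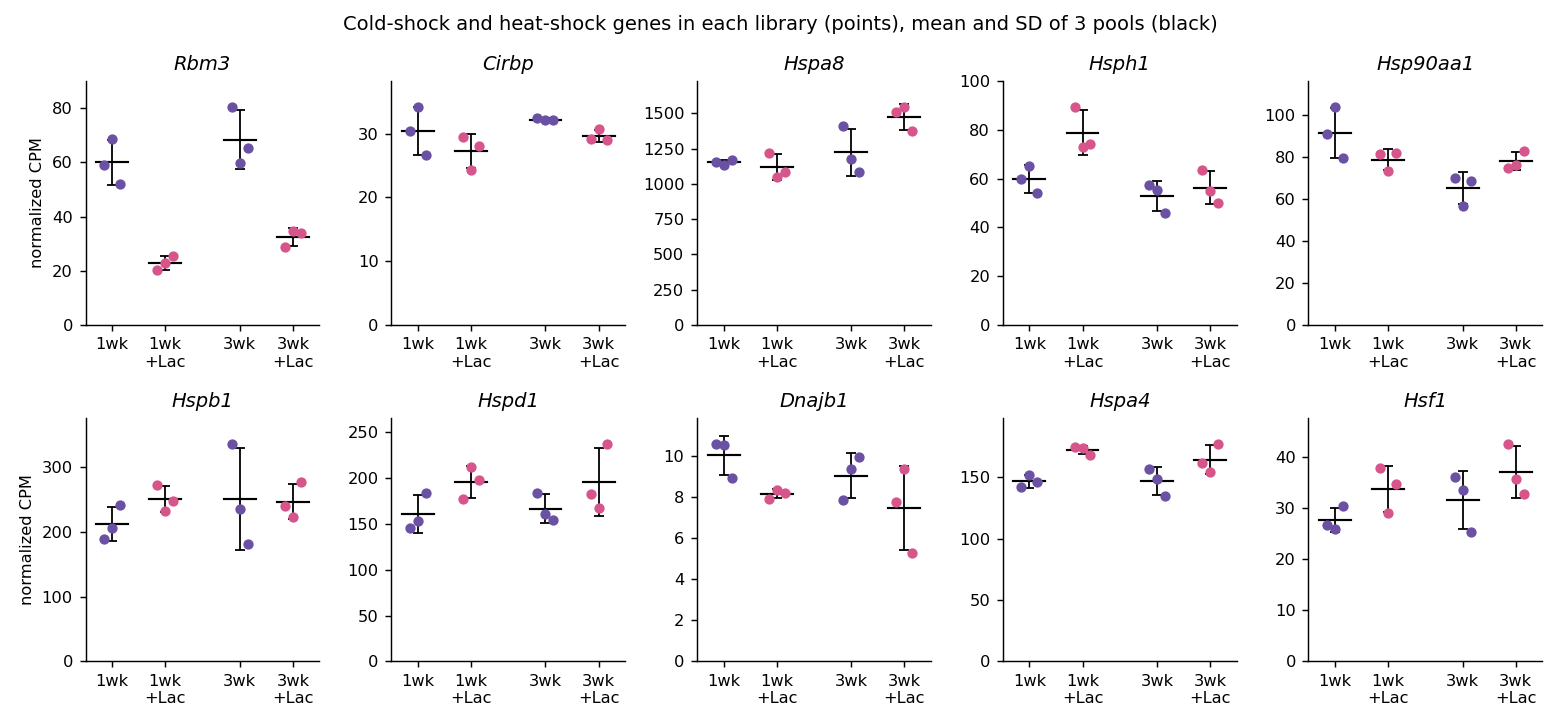
Normalized CPM (y axis, from 0, its scale set for each gene) of the 10 genes in the 4 groups (x axis), purple for non-lactating and pink for lactating muscle. Points are the 3 libraries of a group, and black bars give the mean and SD. Rbm3 lies at 52.2 or more without and at 34.8 or less with lactation, while the points of the 2 groups lie close together for most other genes.

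Cirbp, the closest relative of Rbm3 among these genes, did not pass the test at either time. Its non-lactating libraries at 1 week held 30.4, 34.1 and 26.6 normalized CPM. The lactating libraries of that week held 29.4, 24.3 and 28.1 normalized CPM, overlapping the non-lactating range. At 3 weeks the levels were 32.4, 32.1 and 32.1 normalized CPM without and 29.2, 30.7 and 28.9 with lactation. These groups did not overlap, but they lay within a narrow band. The log2 fold change was -0.16 at 1 week (95% interval -0.379 to 0.0663, edgeR adjusted p = 0.43) and -0.12 at 3 weeks (-0.347 to 0.11, adjusted p = 0.556).

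The ratio of Rbm3 to Cirbp counts within a library does not depend on scaling to library size. At 1 week it was 1.94, 2.02 and 1.96 without lactation and 0.690, 0.936 and 0.903 with it. The 3-week ratios were 2.48, 1.86 and 2.04 without and 0.977, 1.13 and 1.17 with lactation. The ratio was thus higher in every non-lactating library than in any lactating one. Since Rbm3 was chosen for its lower level with lactation, this ratio is a description and carries no test.

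**Figure D2:**
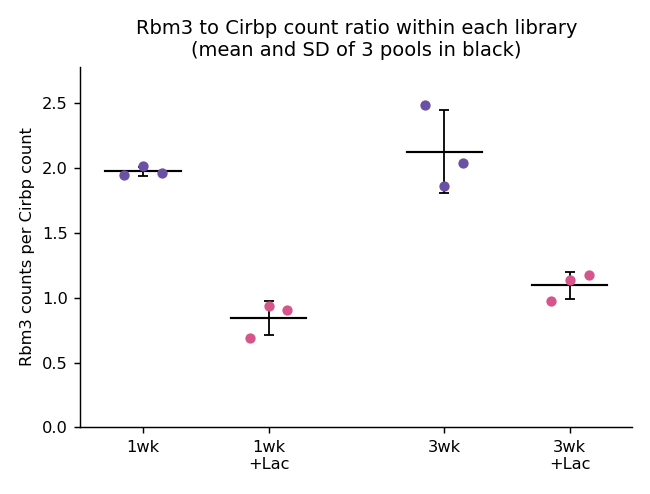
Rbm3 counts per Cirbp count (y axis, not divided by transcript length) in each library of the 4 groups (x axis), purple for non-lactating and pink for lactating muscle, with the mean and SD of 3 libraries in black. Non-lactating libraries lie between 1.86 and 2.48 and lactating ones between 0.690 and 1.17.

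The bases in front of both genes are shown because the genes share a response to cooling but had different lactation values here. They come from RefSeq's promoter table for build GRCr8, read 5′ to 3′ on the gene's strand, and are limited to bases outside the annotated gene. Capitals mark the CCAAT box (CCAAT, either strand), a common promoter element bound by NF-Y, and in Cirbp also the octamer TCCCCGCC, named a mild cold-responsive element. Rbm3 is at chrX:17020655-17020862 (plus strand) and Cirbp at chr7:10189624-10189725 (minus strand).
Rbm3: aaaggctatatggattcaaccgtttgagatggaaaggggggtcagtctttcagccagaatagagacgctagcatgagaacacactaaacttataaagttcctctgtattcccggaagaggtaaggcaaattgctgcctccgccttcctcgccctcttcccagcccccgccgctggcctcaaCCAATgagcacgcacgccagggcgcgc
Cirbp: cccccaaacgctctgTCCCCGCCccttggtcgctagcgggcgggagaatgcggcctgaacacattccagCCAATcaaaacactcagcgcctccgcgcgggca
In the 250 bases before the start site, Cirbp held 1 octamer and Rbm3 held 0, searched on both strands. The octamer was present in 4.22% of 33469 such windows and the CCAAT box in 34.0%. These letters describe the sequence alone, and binding was not measured.

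None of the 8 heat-shock genes passed the test for lactation, so that with Cirbp 0 of 9 genes were called at 1 week and 0 of 9 at 3 weeks. Over all genes tested, 0.569% were called at 1 week and 2.54% at 3 weeks. Without adjustment, a p under 0.05 was reached by Hsph1 and Hspa4 at 1 week and by Hsp90aa1 at 3 weeks, that is 2 and 1 of 9, against 18.9% and 21.1% of all genes. DESeq2 on all 12 libraries called 0 of the 9 at either time, beside 5.55% and 7.62% of all genes by that tool. On the 6 libraries compared it called 1 at 1 week, Hsph1, and 0 at 3 weeks, beside 9.2% and 5.39% of all genes. The median log2 fold change of the 9 genes was 0.23 at 1 week and 0.16 at 3 weeks, beside -0.0038 and -0.0192 over all genes. Libraries of lactating and non-lactating muscle did not overlap for 3 of the 9 at 1 week (Hsph1, Dnajb1 and Hspa4), where 28.4% of all genes did not overlap. At 3 weeks 2 of the 9 (Cirbp and Hsp90aa1) did not overlap, where the share over all genes was 22.3%. For the difference between the lactation effects of both times, edgeR called 0 of the 9, beside 0.00685% of all genes. Hsp90aa1 alone had an unadjusted edgeR p under 0.05, beside 4.42% of all genes. DESeq2 on all 12 libraries also called 0 of the 9, beside 0.0865% of all genes.

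**Figure D3:**
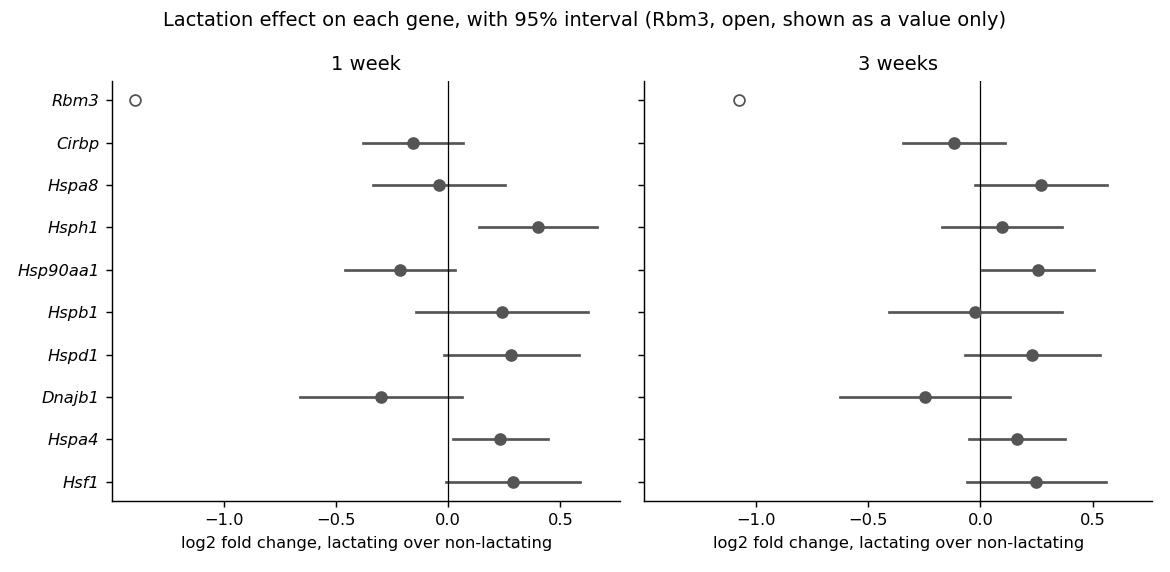
Log2 fold change of lactating over non-lactating muscle (x axis) for each of the 10 genes (y axis) at 1 week and 3 weeks, with 95% intervals from edgeR's fit of 3 libraries per group for the 9 tested genes. Rbm3 is an open point without interval at -1.40 and -1.08, and every other gene lies between -0.30 and 0.40.

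Of the HSP70 family, Hspa8, the constitutive cytosolic chaperone HSC70, showed overlapping groups at both times. It measured 1158, 1131 and 1169 normalized CPM at 1 week without and 1222, 1049 and 1087 with lactation. At 3 weeks it measured 1411, 1177 and 1083 normalized CPM without and 1513, 1545 and 1373 with lactation. The lowest lactating library lay under the highest non-lactating one. Its log2 fold change was -0.04 (95% interval -0.336 to 0.251, edgeR adjusted p = 0.901) at 1 week and 0.27 (-0.0225 to 0.566, adjusted p = 0.275) at 3 weeks.

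Hsph1 encodes HSP105, an HSP110 chaperone that exchanges nucleotide on HSP70. It had the largest 1-week log2 fold change of the 9 tested genes. At 1 week its levels were 60.1, 65.3 and 53.9 normalized CPM without and 89.4, 72.9 and 74.4 with lactation, with no overlap. The log2 fold change of 0.40 (95% interval 0.138 to 0.664) had an edgeR adjusted p of 0.108. DESeq2 on the 6 libraries of 1 week gave an adjusted p of 0.0318, and over all alternatives the adjusted p ran from 0.0318 to 0.362. At 3 weeks its levels were 57.6, 55.2 and 46.1 without and 63.6, 55.0 and 50.1 with lactation, which overlapped. The log2 fold change was then 0.10 (-0.173 to 0.363, adjusted p = 0.702).

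Hspa4, the other HSP110-type exchange chaperone, varied little within groups. Its 1-week levels were 142, 152 and 146 normalized CPM without and 175, 173 and 168 with lactation, and they did not overlap. Its log2 fold change was 0.23 (95% interval 0.0204 to 0.444, edgeR adjusted p = 0.222). The 3-week levels were 157, 149 and 134 normalized CPM without and 161, 155 and 177 with lactation. Those groups overlapped, and the log2 fold change was 0.16 (-0.0488 to 0.377, adjusted p = 0.366).

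Hsp90aa1, the stress-inducible cytosolic HSP90, gave log2 fold changes of opposite sign at the 2 times. At 1 week it held 90.6, 104 and 79.4 normalized CPM without and 81.2, 73.0 and 81.5 with lactation, which overlapped. Its log2 fold change was -0.21 (95% interval -0.461 to 0.0309, edgeR adjusted p = 0.324). At 3 weeks it held 70.0, 56.3 and 68.6 normalized CPM without and 74.8, 76.0 and 82.7 with lactation, without overlap. The log2 fold change was 0.26 (0.00873 to 0.508, adjusted p = 0.222). The difference between these effects, 0.47 (0.123 to 0.823), had an adjusted p of 0.999 over all genes.

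Dnajb1, the HSP40 partner of HSP70 and a strongly heat-inducible gene, was the least counted of the set, with 48 to 827 counts per library. Its 1-week levels were 10.6, 10.5 and 8.93 normalized CPM without and 7.90, 8.34 and 8.19 with lactation, without overlap. At 3 weeks they were 7.83, 9.35 and 9.93 without and 7.75, 9.35 and 5.28 with lactation, and the groups overlapped. Its log2 fold changes were -0.30 (95% interval -0.66 to 0.063, edgeR adjusted p = 0.35) and -0.25 (-0.626 to 0.13, adjusted p = 0.447).

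Hspb1, the small heat-shock protein HSP27 that guards actin filaments and sarcomeres, spread widely among the 3wk SBI libraries. At 1 week it measured 189, 205 and 241 normalized CPM without and 271, 232 and 247 with lactation, which overlapped. Its 3-week levels were 335, 235 and 181 without and 240, 223 and 276 with lactation, so that all lactating values fell inside the non-lactating range. The log2 fold changes were 0.24 (95% interval -0.144 to 0.624, edgeR adjusted p = 0.486) and -0.02 (-0.408 to 0.363, adjusted p = 0.96), and the sign at 3 weeks turned when 3wk SBI replicate 1 (0.24) or 3wk SBI + Lac replicate 2 (0.04) was left out.

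Hspd1 encodes HSP60, the chaperonin of the mitochondrial matrix. The 1-week libraries held 146, 153 and 184 normalized CPM without and 177, 212 and 198 with lactation. Those of 3 weeks held 184, 161 and 154 without and 182, 167 and 237 with lactation, and the groups overlapped at both times. Its log2 fold changes were 0.28 (95% interval -0.021 to 0.581, edgeR adjusted p = 0.294) and 0.23 (-0.0707 to 0.534, adjusted p = 0.369).

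Hsf1, the regulator of this system, acts mainly through changes of its protein, so its RNA is only a partial readout. Its levels at 1 week were 26.8, 26.0 and 30.4 normalized CPM without and 37.8, 29.0 and 34.7 with lactation. At 3 weeks they were 36.0, 33.6 and 25.3 without and 42.6, 35.8 and 32.8 with lactation. The groups overlapped at both times, with log2 fold changes of 0.29 (95% interval -0.0122 to 0.589, edgeR adjusted p = 0.28) and 0.25 (-0.0594 to 0.558, adjusted p = 0.344).

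Heat-shock elements in front of these genes are shown as sequence alone, and binding of HSF1 was not measured. They were searched as GAANNTTC or TTCNNGAA, each its own reverse complement and free to overlap, in the 250 bases before the start site. Promoter entries were found for 8 of the 10 genes, without Hsp90aa1 and Hsf1. The element was present in 5 of these 8, namely Hspa8, Hsph1, Hspb1, Hspd1 and Dnajb1, and in 13.5% of all 33469 windows. Rbm3, Cirbp and Hspa4 held 0 matches. Each 30-base window below (RefSeq, GRCr8, 5′ to 3′ on the gene's strand) has the element in capitals. The windows are at chr8:50080450-50080479 (plus) for Hspa8, chr12:10427323-10427352 (plus) for Hsph1, chr12:26432402-26432431 (minus) for Hspb1, chr9:64084254-64084283 (minus) for Hspd1 and chr19:41431144-41431173 (minus) for Dnajb1.
Hspa8: gcggaacccTTCTGGAAGGTTCtaagacag
Hsph1: tgccgcagaTTCTGGAAAGTTCtcctcagt
Hspb1: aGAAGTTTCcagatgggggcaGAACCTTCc
Hspd1: ggccTTCCGGAAGGTTCTAGAAccgagcgc
Dnajb1: ggcgacgcatcgggaggggcgGAAGGTTCt
Among the 5 genes with the element, the 1-week log2 fold changes ran from -0.30 (Dnajb1) to 0.40 (Hsph1).

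Between 1 and 3 weeks, 1 of the 10 genes was called. Hsp90aa1 was lower at 3 weeks in non-lactating muscle, with a log2 fold change of -0.49 (95% interval -0.737 to -0.241, edgeR adjusted p = 0.027), where 5.05% of all genes were called. The call was lost when 1wk SBI replicate 1, 1wk SBI replicate 2 or 3wk SBI replicate 2 was left out (adjusted p from 0.0988 to 0.137). In lactating muscle edgeR called 0 of 10 genes, beside 2.01% of all genes. An unadjusted edgeR p under 0.05 was reached by 3 of the 10, beside 18.1% of all genes. DESeq2 on all 12 libraries called those 3, beside 6.02% of all genes by that tool. The 3 genes were Rbm3 (log2 fold change 0.51), Hspa8 (0.40, edgeR adjusted p = 0.14) and Hsph1 (-0.49, adjusted p = 0.0583). The libraries of the 2 times did not overlap for these 3 genes. That is not read as a result, since the share of all genes without overlap was not taken for this comparison. For lactation that share was 28.4% at 1 week and 22.3% at 3 weeks. In non-lactating muscle the log2 fold change of Rbm3 over time was 0.19 (95% interval -0.101 to 0.473). Rbm3 was selected on its levels in these same libraries, so its changes over time are descriptions, also where it is counted among the 10. The deposited 1-week values are whole counts and many 3-week values carry decimals, as estimated counts do, so time and the way of counting cannot be told apart in these values.

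The wider chaperone system was read from lists of related genes. HSP90 and its co-chaperones, the partners that load clients such as steroid receptors onto HSP90, had positive log2 fold changes in 11 of 12 genes at 1 week and 12 of 12 at 3 weeks. Over all genes, 49.4% and 47.7% of the log2 fold changes were positive. The list had 2 genes called higher at 1 week and 4 at 3 weeks, and 0 lower, beside 0.569% and 2.54% of all genes called in either direction. DESeq2 on all 12 libraries called 5 and 7 of the 12 higher, beside 5.55% and 7.62% of all genes by that tool. The list's median log2 fold change was 0.26 and 0.36. Hsp90aa1, 1 of the 10 members, and Dnajc7, placed with the HSP40 genes, were not in this list. Their log2 fold changes were -0.21 and -0.08 at 1 week and 0.26 and -0.39 at 3 weeks. Of these, Dnajc7 at 3 weeks was called lower (edgeR adjusted p = 0.0408).

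Fkbp5, an immunophilin that restrains the glucocorticoid receptor and is itself a glucocorticoid target, rose most in this list. Levels at 1 week were 6.41, 6.12 and 7.10 normalized CPM without and 17.8, 22.5 and 11.9 with lactation. Levels at 3 weeks were 17.8, 13.4 and 14.3 without and 46.2, 31.4 and 38.1 with lactation, and the groups did not overlap at either time. The log2 fold changes were 1.41 (standard error 0.205, edgeR adjusted p = 0.0146) and 1.36 (standard error 0.206, adjusted p = 0.00777). The 1-week call was lost without 1wk SBI replicate 1, 1wk SBI replicate 2 or 1wk SBI + Lac replicate 1, and the 3-week call was kept in all 6 fits that left out a library.

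Ppid, which encodes cyclophilin 40, rose at both times. Its levels at 1 week were 26.9, 28.2 and 26.5 normalized CPM without and 49.8, 40.1 and 37.6 with lactation. Its levels at 3 weeks were 35.2, 41.8 and 33.3 without and 58.1, 57.2 and 53.4 with lactation. The groups did not overlap, with log2 fold changes of 0.64 (edgeR adjusted p = 0.0286) and 0.62 (adjusted p = 0.015). The 1-week call was lost without 1wk SBI replicate 1 or 2 or 1wk SBI + Lac replicate 1 or 2. The 3-week call was lost without 3wk SBI replicate 3 or 3wk SBI + Lac replicate 1 or 2.

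Fkbp4, the immunophilin that favours steroid receptor transport, and Ahsa1, which speeds the ATPase of HSP90, rose at 3 weeks. Fkbp4 held 137, 148 and 110 normalized CPM at 3 weeks without and 202, 184 and 202 with lactation, a log2 fold change of 0.57 (edgeR adjusted p = 0.0354). Ahsa1 held 60.5, 65.2 and 56.1 normalized CPM without and 83.4, 78.1 and 84.0 with lactation, a log2 fold change of 0.43 (adjusted p = 0.0212). Neither overlapped between groups. Both calls were lost when 3wk SBI replicate 3 or any single 3wk SBI + Lac library was left out, and that of Ahsa1 also with only the libraries compared in the fit. At 1 week their log2 fold changes were 0.44 (adjusted p = 0.0988) and 0.35 (adjusted p = 0.0677).

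**Figure D4:**
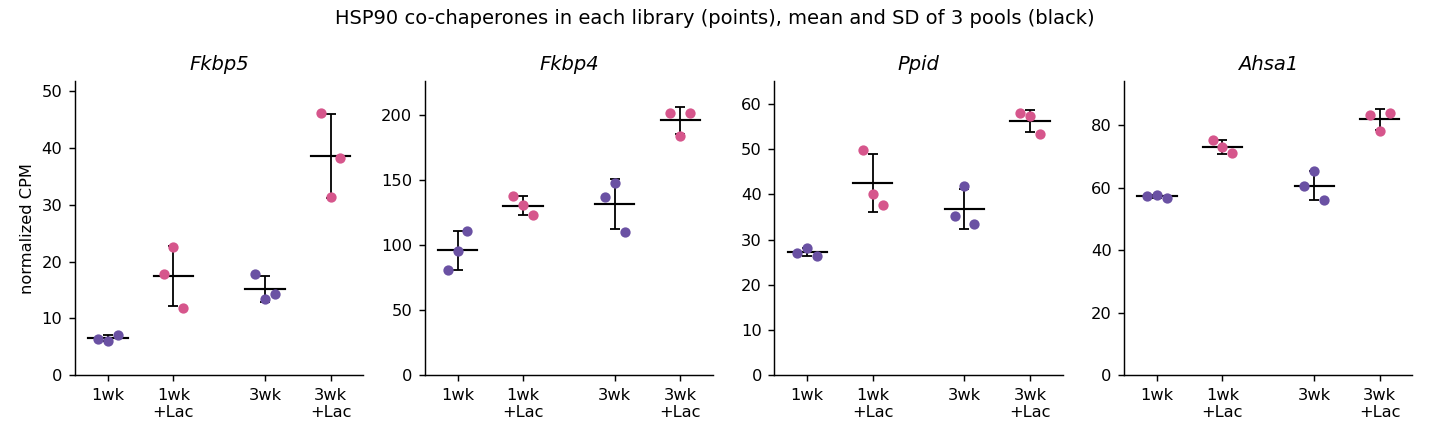
Normalized CPM (y axis, from 0, its scale set for each gene) of 4 HSP90 co-chaperone genes in the 4 groups (x axis), purple for non-lactating and pink for lactating muscle, with points for the 3 libraries and the mean and SD in black. The pink points lie above the purple ones of the same week for each gene, and Fkbp5 in 3wk SBI + Lac lies between 31.4 and 46.2.

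Among 14 further HSP40 genes, 0 were called at 1 week, and at 3 weeks 3 were higher and 1 was lower with lactation by edgeR, beside 0.569% and 2.54% of all genes. Dnajb2, which is enriched in nerve and muscle (log2 fold change 0.59, edgeR adjusted p = 0.0239), Dnajc21, a ribosome assembly factor (0.71, adjusted p = 0.0426), and Dnajb12, anchored in the endoplasmic reticulum membrane (0.47, adjusted p = 0.0457), rose. Dnajc7, a co-chaperone of HSP70 and HSP90, fell by 0.39 on the log2 scale (adjusted p = 0.0408). Leaving out 3wk SBI replicate 3 or any 1 of the 3wk SBI + Lac libraries lost each of these 4 calls. The calls of Dnajc21 and Dnajb12 were also lost without 3wk SBI replicate 1, and that of Dnajc7 without 3wk SBI replicate 2. With only the libraries compared in the fit Dnajb12 and Dnajc7 were not called, and without the low-count filter Dnajc7 was not called. DESeq2 on all 12 libraries called 3 of the 14 at 1 week, and 5 at 3 weeks, beside 5.55% and 7.62% of all genes. At 1 week 6 of the 14 had an unadjusted edgeR p under 0.05, beside 18.9% of all genes. In total the list had 9 of 14 positive log2 fold changes at 1 week and 8 of 14 at 3 weeks, beside 49.4% and 47.7% of all genes.

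Of genes with a cold-shock domain, a fold that RBM3 and CIRBP do not carry, 6 were tested. By edgeR 0 of them were called at 1 week and 2 at 3 weeks, in opposite directions, beside 0.569% and 2.54% of all genes. An unadjusted edgeR p under 0.05 was reached by 4 at 1 week and 3 at 3 weeks, beside 18.9% and 21.1% of all genes. DESeq2 on all 12 libraries called 3 at 1 week and 3 at 3 weeks, beside 5.55% and 7.62% of all genes. Ybx3, a translational repressor abundant in muscle, held 1247, 1217 and 889 normalized CPM at 3 weeks without and 2599, 2071 and 1975 with lactation. These groups did not overlap, and its log2 fold change was 0.99 (standard error 0.167, edgeR adjusted p = 0.00934). Carhsp1, which encodes a calcium-regulated heat-stable RNA-binding protein, held 16.0, 14.3 and 21.0 normalized CPM without and 11.3, 10.7 and 8.90 with lactation, a log2 fold change of -0.73 (adjusted p = 0.0354). The call of Ybx3 was lost without 3wk SBI + Lac replicate 1, and that of Carhsp1 without 3wk SBI replicate 3 or any single 3wk SBI + Lac library, or with only the libraries compared in the fit.

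The remaining chaperone lists had 0 genes called by edgeR at either time. They comprised 9 further HSP70 and HSP110 genes (medians 0.02 and -0.11), 6 small heat-shock proteins (0.22 and 0.01), 8 subunits of the cytosolic chaperonin (0.04 and 0.06), 12 mitochondrial chaperones and proteases (0.13 and -0.00467), 19 genes of the endoplasmic reticulum (-0.10 and -0.00885), and 11 exchange factors and other heat-shock factors (0.18 and 0.24), all as median log2 fold changes at 1 and 3 weeks. Of these 65 genes 7 and 12 had an unadjusted edgeR p under 0.05, beside 18.9% and 21.1% of all genes. DESeq2 on all 12 libraries called 3 and 2 of 67, beside 5.55% and 7.62% of all genes. Their lowest edgeR adjusted p was 0.089 at 1 week and 0.0925 at 3 weeks. Of 10 heat production genes edgeR called 0 at 1 week and 1 at 3 weeks, beside 0.569% and 2.54% of all genes. The called gene was Ucp2, a mitochondrial carrier, lower at 3 weeks (log2 fold change -1.07, edgeR adjusted p = 0.0383). Its call was lost without 3wk SBI replicate 3 or 3wk SBI + Lac replicate 1 or 3, without the low-count filter, or with only the libraries compared. An unadjusted edgeR p under 0.05 was reached by 4 of the 10 at 1 week and 5 at 3 weeks, beside 18.9% and 21.1% of all genes. DESeq2 on all 12 libraries called 1 and 2 of 12, beside 5.55% and 7.62% of all genes. Of 17 clock genes edgeR called 1 at 3 weeks, beside 2.54% of all genes. This was Per2, higher with lactation (log2 fold change 0.75, edgeR adjusted p = 0.0448). Its call was lost whichever of the 6 libraries was left out, or with upper-quartile scaling. At 3 weeks 5 of the 17 had an unadjusted edgeR p under 0.05, beside 21.1% of all genes. DESeq2 on all 12 libraries called 2 clock genes higher and 1 lower at 3 weeks, beside 7.62% of all genes. On only the libraries compared it called 4 higher and 2 lower, beside 5.39% of all genes. At 1 week edgeR and DESeq2 called 0 clock genes. An unadjusted p under 0.05 was reached by 0 of them, beside 18.9% of all genes by edgeR.

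**Figure D5:**
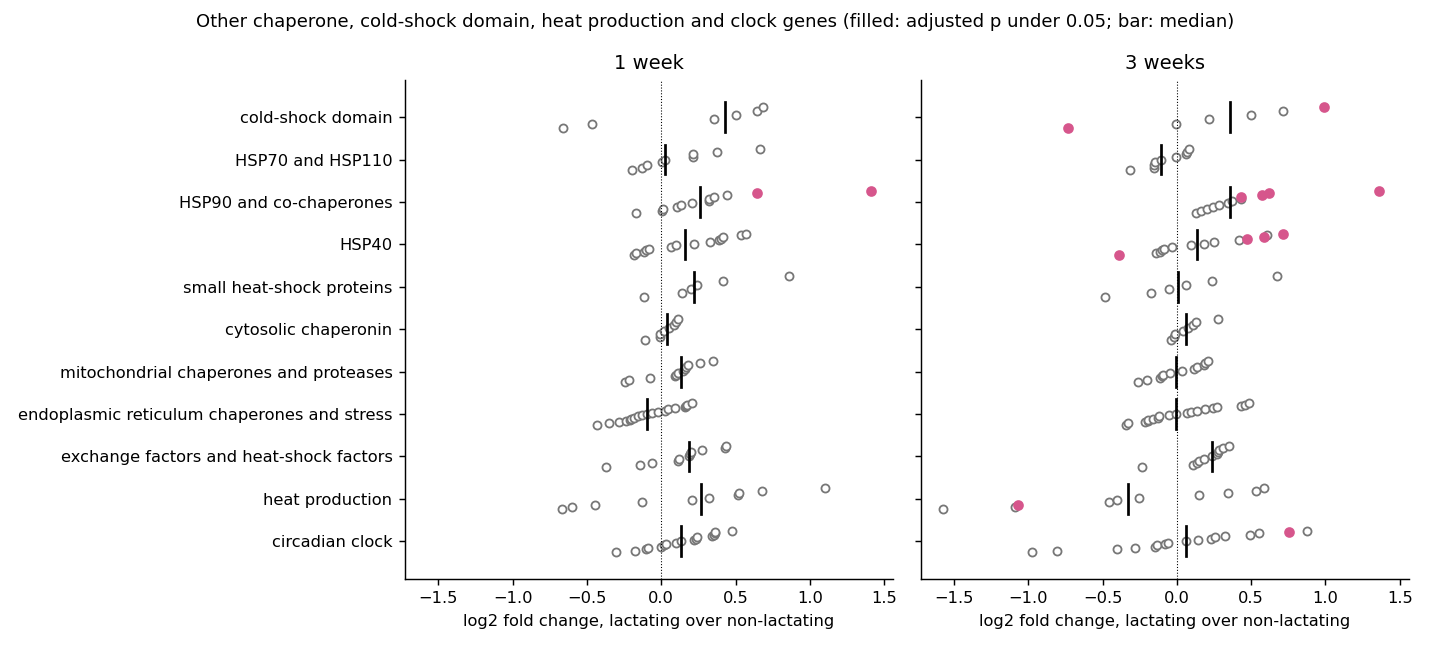
Log2 fold change of lactating over non-lactating muscle (x axis) for the genes of 11 lists (y axis) at 1 week and 3 weeks. Circles are genes, filled where the edgeR adjusted p was under 0.05, and black bars are list medians. Filled circles lie in the HSP90 list at both times, and at 3 weeks also in the cold-shock domain, HSP40, heat production and clock lists.

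The genes whose levels were most like Rbm3 were sought among 12019 named genes with a mean of at least 1 normalized CPM, over the 12 libraries after the mean of each time point was subtracted. Pearson's r was 0.94 for Jaml, a leukocyte adhesion molecule, 0.938 for Prmt1, an arginine methyltransferase, 0.934 for Shmt1, an enzyme of folate metabolism, 0.933 for Slc6a6, the taurine transporter, and 0.933 for Gpnmb, a glycoprotein of macrophages. By rank the order differed, with Spearman's rho of 0.776 for Jaml, 0.923 for Prmt1, 0.881 for Shmt1, 0.881 for Slc6a6 and 0.783 for Gpnmb. Jaml lay near the cutoff of 1 normalized CPM, with group means from 0.633 to 2.13 and 5 counts in 1 library. The libraries share depth and group, so these values describe likeness alone. Cirbp had a Pearson r of 0.645 (rank 1295 from the top), and Dnajb1 followed at 0.573 and Hsp90aa1 at 0.125. Negative values were those of Hspa4 (-0.775, rank 11261), Hsph1 (-0.65, rank 10343), Hsf1 (-0.644, rank 10290), Hspd1 (-0.601, rank 9988), Hspa8 (-0.3) and Hspb1 (-0.257).

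Of the markers of other cell types, edgeR called Cd68 at both times and Cd28 at 3 weeks for lactation. Over all genes, 0.569% were called at 1 week and 2.54% at 3 weeks, and 49.4% and 47.7% had a positive log2 fold change. Of 12 macrophage and monocyte markers, 11 had a negative log2 fold change at 1 week and 12 at 3 weeks, and 1, Cd68, was called lower at each time. At 1 week their summed level was 597 to 660 normalized CPM without and 389 to 549 with lactation, and at 3 weeks 447 to 986 and 413 to 667, with 0 of the 12 at 0 counts in any library. The 8 T cell markers were all negative at both times (summed level 13.9 to 26.5, 5.73 to 13.0, 10.7 to 23.2 and 3.30 to 7.87 normalized CPM in the same order), with Cd28 called lower at 3 weeks (log2 fold change -1.99, edgeR adjusted p = 0.0219), and the 8 fibroblast and matrix markers were all negative with 0 called. Up to 4 T cell markers were at 0 counts in a library. The 10 myofiber markers had a positive log2 fold change in 10 of 10 at 1 week and 8 of 10 at 3 weeks, with 0 called. Their sum at 1 week was 91107 to 143461 normalized CPM without and 139859 to 168176 with lactation, and at 3 weeks 131861 to 184371 and 193156 to 222231. The 4 tested erythroid markers had positive log2 fold changes at both times, with 0 called, and the sum of all 6 was 242 to 414 normalized CPM without and 556 to 780 with lactation at 1 week, and 97.3 to 183 and 132 to 242 at 3 weeks. Milk and mammary markers summed to 39.9 and 11.5 normalized CPM in 3wk SBI + Lac replicates 1 and 2 and to 3.59 or less in every other library. The fibroblast and matrix sum was 7721 to 11197 normalized CPM without and 4568 to 8428 with lactation at 1 week. At 3 weeks it was 3697.5 to 8499 and 2214 to 3186. Of 6 adipocyte markers tested, 2 were positive at 1 week and 3 at 3 weeks, with 0 called. The sum of all 7 was 168 to 319 normalized CPM without and 304 to 427 with lactation at 1 week. At 3 weeks it was 342 to 413 and 527 to 592. Of 6 endothelial markers 3 were positive and 3 negative at each time. The part of these cell types in the values of Rbm3 and the chaperone genes was not tested.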

How the data were processed

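Stranded mRNA libraries of pubocaudalis muscle, 3 per group in 4 groups, were read from 1 table of 30206 genes. The authors deposited counts that were not normalized: the 1-week columns hold whole counts and the 3-week columns, as deposited, hold estimated counts with decimals, which were rounded. The submitters' processing notes name Salmon, and its version, the build and the gene annotation used were not given in the sources used here. For Dnajb1 4 of 6, and for the other members all 6, 3-week values had decimals.

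Library sizes were scaled by TMM, low counts removed by filterByExpr, and all 12 libraries fitted by group with edgeR 4.0.16 (robust quasi-likelihood, R 4.3.3). DESeq2 1.42.0 was an alternative. Members, lists and alternatives were chosen with earlier results of these data known. Named were all 10 members, the called genes of each chaperone, cold-shock domain, heat production and clock list (at most 4 per list and time, by p), and the 5 genes most like Rbm3. Naming of Cd68 and Cd28, and of the genes with an unadjusted p under 0.05, followed after their values were seen. Pools were labelled as different rats and treated as replicates, and p-values measure only the spread between pools. Replicates differed by more than counting noise. Arntl (listed as Bmal1) and St13 were not used here.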

Additional observations from a re-analysis of the deposited data

How the results depend on the processing

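All 9 tested members stayed uncalled for lactation at 1 week under the alternatives, except DESeq2 on only the libraries compared. That setting called 1 of the 9, beside 9.2% of all genes. All 9 stayed uncalled at 3 weeks and for the difference of the effects. For 3 against 1 week without lactation, the 1 call became 0 with the replicate block, with only the libraries compared and with a log2 fold change cutoff of 1, and ran from 0 to 1 when a library was left out. With lactation, 0 became 1 with upper-quartile scaling, at least 10 counts in every library or the replicate block. The share of all genes called there was 2.11%, 2.65% and 1.05%, against 2.01% in the main fit. The member count became 3 with DESeq2 on all 12 libraries, only the libraries compared, or DESeq2 on these. There 6.02%, 7.67% and 9.9% of all genes were called. Rbm3, whose change over time is a description, was 1 of those 3 members. The cause was not tested. The replicate number did not pair samples (same-number correlations -0.233 to -0.0503); its block left 13 and 178 genes called over all genes, against 83 and 371, and no member for lactation. Among the list genes it ended the calls of Ppid at 1 week and of Fkbp4, Ahsa1, Dnajc7, Dnajc21, Dnajb12, Carhsp1 and Ucp2 at 3 weeks (edgeR adjusted p from 0.0515 to 0.0825). With the fold cutoff, of the list genes Fkbp5 at both times and Ucp2 were still called.

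Leaving out a library turned 3 signs, all of uncalled values near 0: Hspa8 at 1 week (-0.11 to 0.0045, turned without 1wk SBI + Lac replicate 2), Hsph1 at 3 weeks (-0.0036 to 0.18, without 3wk SBI + Lac replicate 1) and Hspb1 at 3 weeks (-0.21 to 0.24, without 3wk SBI replicate 1 or 3wk SBI + Lac replicate 2). Rbm3 ran from -1.49 to -1.28 and from -1.16 to -0.95. Over all genes, calls ran from 2 (without 1wk SBI + Lac replicate 1) to 921 (without 1wk SBI replicate 3) at 1 week and from 58 (without 3wk SBI + Lac replicate 1) to 526 (without 3wk SBI replicate 1) at 3 weeks. DESeq2 on all libraries called 796 and 1065, no filter 158 and 355, only the libraries compared 276 and 245, DESeq2 on these 1372 and 675, and the fold cutoff left 37 and 108. Of the 10 members depth limits Dnajb1 most, with 48 counts in its lowest library, and Jaml had 5 counts in 1 library.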
